A study of Mus musculus with 12 samples.

Results

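The genes described here are the neighbours of Gjb2 on mouse chromosome 14, the gene of the gap junction protein connexin 26, and they were examined in cochleae of mice in which Gjb2 had been edited. The neighbours are all genes of the expression table that start within a 7.5 Mb window of chromosome 14 of mm10 (GRCm38), which ends at 62000000, without Gjb2 itself and the neighbouring connexin gene Gjb6. These were 205 of 37432 genes, of which 112 start at a lower coordinate than Gjb2 and 93 at a higher one. The choice used position only and no measured value. The study compared wild-type male mice with males homozygous for the Gjb2 35delG allele (35delG/35delG) at postnatal day 14, separately for 3 equal sections of the cochlea, the apical, middle and basal turn, with 2 biological repeats in each of 6 groups and 12 RNA-seq libraries in all. The allele was made in haploid embryonic stem cells and passed through heterozygous mice that were backcrossed to C57BL/6J. The homozygous males came from male embryonic stem cell lines, derived from embryos of heterozygous parents, by tetraploid complementation, on an almost C57BL/6J background, were delivered by cesarean section and were nursed by ICR females, whereas the wild-type males were purchased, so that genotype and origin cannot be told apart. The number of mice behind a library is not given in the sources used here.

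Connexins assemble into channels that join the cytoplasm of neighbouring cells, and in the cochlea connexin 26 and connexin 30, the product of Gjb6, build the gap junctions of supporting cells and of the lateral wall. Their genes lie side by side with Gja3, which encodes the connexin 46 of the lens. Genes in such a stretch of chromosome can share regulatory DNA, and whether a change made in one gene was accompanied by changes in the genes around it is therefore a question that the level of every neighbour can address.

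The site that was cut lies within the protein-coding part of exon 2 of Gjb2, and all distances below run from the start coordinate of Gjb2, 57098600, to the start coordinate of each neighbour. The guide RNA site is shown because it marks where in the window the genome was edited. Its 20 bases are in lower case, the PAM that follows them is in capitals, and it reads on the plus strand at chr14:57100701-57100723, opposite to the strand of Gjb2. It was read from the oligonucleotides the study lists and placed on the Gjb2 transcript of GENCODE vM21.
Gjb2 35delG guide site: agtgtttgttgacacccccgAGG

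Levels are given as scaled FPKM, fragments per length of transcript and size of library, divided by one factor per library, and differences as log2 fold changes of scaled FPKM + 1, homozygous over wild-type. On this scale the change of genes near 1 FPKM is understated. Of the 205 neighbours, 109 reached 1 FPKM in at least 2 libraries and were tested with limma together with all 16215 such genes. The annotation lists 119 of the 205 as protein coding, and 88 of those were tested. At the other end, 2 neighbours were at 0 in every library. Among the 109, the median level of a gene over the 12 libraries ran from 0 to 82.0 with a middle value of 6.02, and 36 genes had a median of at least 10. The highest were Pabpn1, which encodes a nuclear poly(A)-binding protein, Slc22a17, which encodes a receptor of the iron carrier lipocalin, and Nedd8, which encodes a ubiquitin-like protein. Pabpn1 ranged from 49.8 to 128 over all libraries, Slc22a17 from 54.9 to 117 and Nedd8 from 42.7 to 97.1, and none of these passed the test in any turn.

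The libraries of a turn differed in the tissue they held, and this bears on every comparison of genotypes. The summed level of 8 markers of spiral ganglion neurons was 11.98 and 636 in the wild-type basal libraries and 2010 and 2480 in the homozygous ones, but 1077 and 1224 in the wild-type middle libraries against 257 and 36.8 in the homozygous ones. In the apical turn it was 457 and 669 in wild-type libraries against 127 and 249 in homozygous libraries. All 8 of these markers were higher in the homozygous basal turn, and 7 of 8 were lower in the homozygous middle and in the homozygous apical turn. The summed level of 8 markers of cochlear epithelium was 6316 and 6836 in the wild-type basal libraries and 432 and 1968 in the homozygous ones, and outside the homozygous basal turn it was at least 5856. A sum of 9 markers of neutrophils and their precursors reached 6173 in the first homozygous middle library and 333.5 in the second. In such bulk samples, fewer cells of a type and less RNA per cell cannot be told apart. With all 12 libraries in the fit, the p-values rest on the spread between the 2 repeats of a group, pooled over all groups. A gene therefore has the same standard error in each turn, whatever the spread of its repeats in that turn. Libraries of the other turns thus enter the p-value of a turn. Since each cochlea was cut into 3 sections, libraries of different turns can come from the same cochleae, which the labels do not tie together. The tests of the mean of the turns and of differences between turns treat all 12 libraries as independent.

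In the apical and the middle turn no neighbour of Gjb2 was called, which required a fold change over 2 and an adjusted p under 0.01, and averaged over the turns none was called either. In the basal turn 4 of 109 were called, 2 higher and 2 lower in homozygotes. Over all genes tested, the share called was 0.179% for the apical turn, 0.179% for the middle turn, 4.29% for the basal turn and 0.376% for the mean of the turns, so that the 3.67% of neighbours called in the basal turn lie near the background. At an unadjusted p under 0.05, limma gave 17 neighbours for the apical turn, 32 for the middle turn, 36 for the basal turn and 16 for the mean of the turns, which is 15.6%, 29.4%, 33.0% and 14.7% of the 109, against 16.4%, 25.4%, 32.4% and 18.6% of all genes. With 2 libraries against 2, genotypes without overlap within a turn were common. This held for 59.0% (apical), 59.5% (middle) and 54.0% (basal) of all genes tested. Among the neighbours the shares were 49.5%, 59.6% and 58.7%.

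The size and direction of the differences were close to those of all genes tested, except that in the middle turn the neighbours had larger changes. For the mean of the turns, the median absolute log2 fold change was 0.158 in the 109 neighbours, 0.146 in the 447 tested genes on the rest of chromosome 14 and 0.157 in all genes. In the apical turn the same median was 0.266 in the neighbours and 0.263 in all genes, in the basal turn 0.385 and 0.377, and in the middle turn 0.416 and 0.327. On the rest of chromosome 14 it was 0.263 (apical), 0.384 (basal) and 0.318 (middle). The signed median of the neighbours was 0.03 (apical), 0.04 (middle) and -0.01 (basal). Of the 109, 56 were higher and 53 were lower in homozygotes over the mean of the turns.

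**Figure D1:**
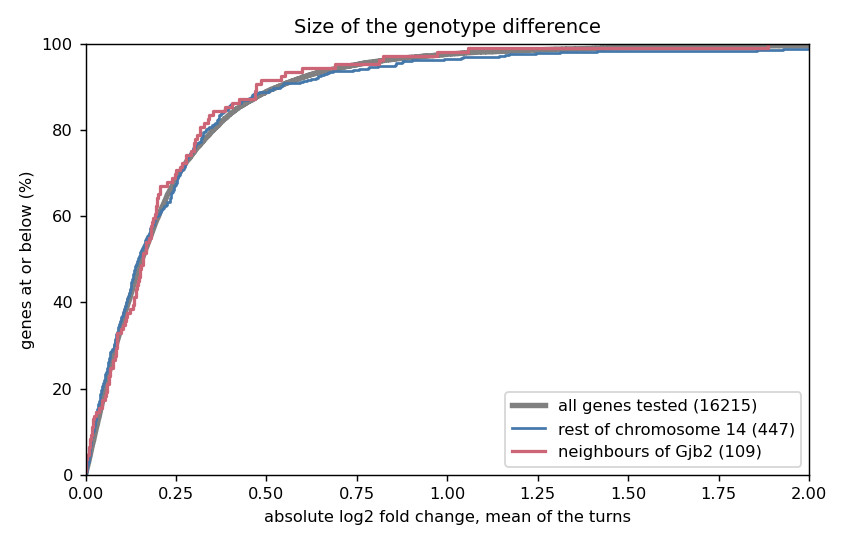
Cumulative share of genes (y axis, percent) at or below a given absolute log2 fold change averaged over the turns (x axis) for all 16215 genes tested, the 447 on the rest of chromosome 14 and the 109 neighbours of Gjb2. The 3 curves run close together, with medians of 0.157, 0.146 and 0.158. The x axis ends at 2, and a few genes lie beyond it.

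The changes did not decline steadily with distance from Gjb2. Across the 109 genes, which share libraries and are not independent, Spearman's correlation of the absolute change with the absolute distance was 0.15 (apical), 0.22 (middle), 0.16 (basal) and 0.10 for the mean of the turns, in each case weakly toward larger changes farther away. Of the 7 genes tested within 500 kb on the lower side and the 6 on the higher side, the called one was Cryl1 in the basal turn. Within 1000 kb of Gjb2 the count was 1 of 22 and within 2600 kb it was 3 of 93. For the mean of the turns, the median absolute change was 0.05 for the 4 genes from 250 to 500 kb on the higher side, 0.18 for the 6 genes at the same distance on the lower side, and 0.19 for the 25 genes more than 2000 kb away on the higher side. Single turns differed from this mean, in which opposite signs cancel. The bin under 250 kb on the higher side, with the 2 tested genes Gm4491 and Cryl1, had a median absolute change of 0.22 (apical), 0.61 (middle) and 0.77 (basal), and the last 2 values were exceeded by 1 other bin. For the mean of the turns the largest median, 1.35, belonged to the bin from 1000 to 2000 kb on the higher side, which holds 2 tested genes.

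**Figure D2:**
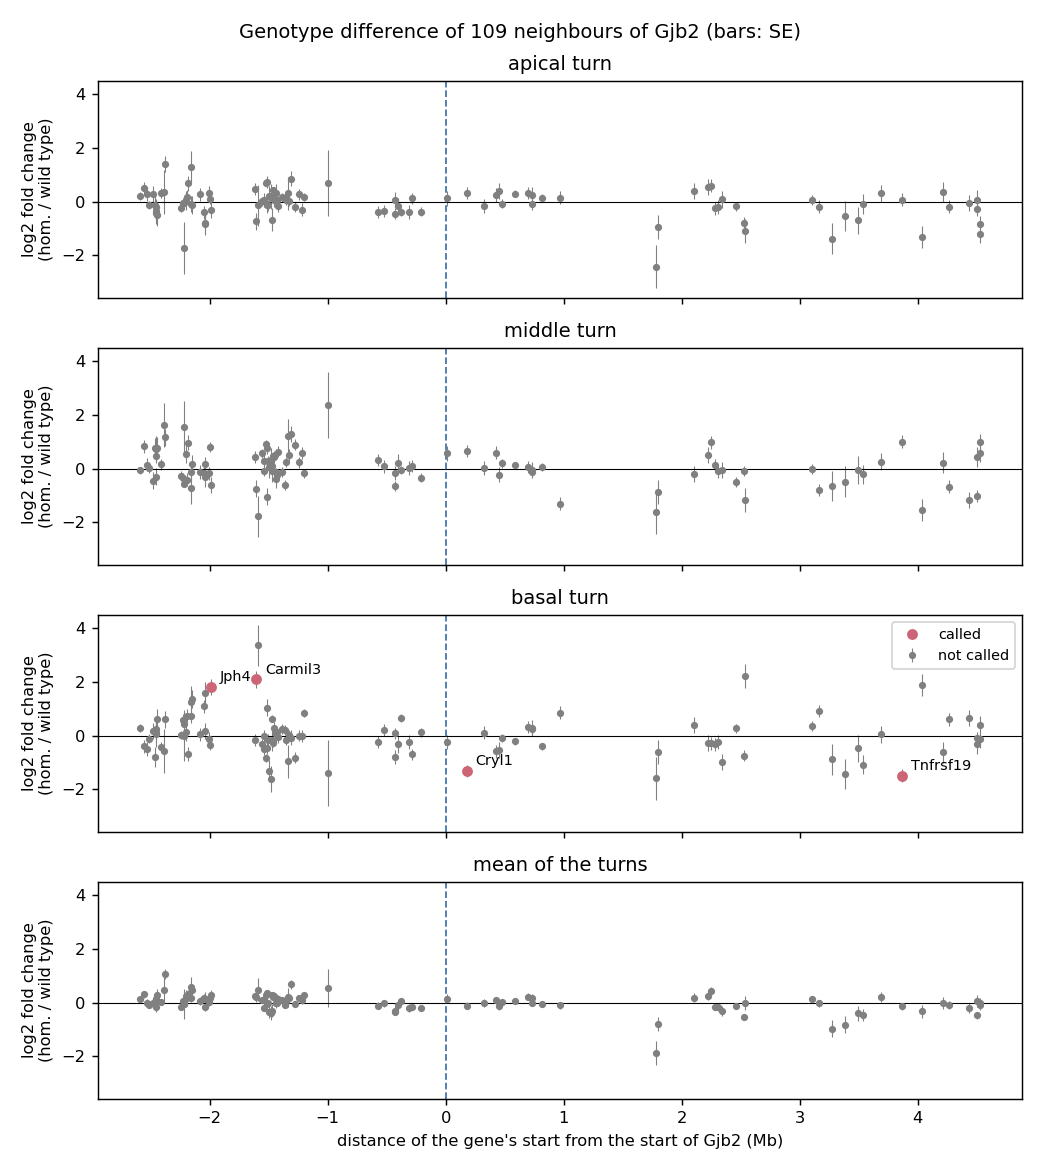
Log2 fold change of homozygous over wild-type (y axis, bars are standard errors) for the 109 neighbours against the distance of their start from the start of Gjb2 (x axis, Mb), in each turn and for the mean of the turns. The dashed line marks Gjb2. The called genes, in red, are 4 genes of the basal turn, and only Cryl1 among them starts within 1 Mb of Gjb2.

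The genes within 500 kb of Gjb2 ran from 0 in every library to moderate levels, and none was called over the mean of the turns. Gja3, 64.1 kb from Gjb2, was near the limit of detection, with a highest level of 0.178 over the 12 libraries, and it was not tested. Of 24 members within 500 kb, 13 were tested, and their log2 fold change over the mean of the turns lay between -0.34 and 0.15, with adjusted p-values of 0.167 or more in limma. Zmym2, a zinc finger protein of chromatin complexes that starts 212 kb from Gjb2, was at 16.5 and 16.9 in wild-type libraries against 13.3 and 12.1 in homozygous apical libraries, at 13.5 and 18.1 against 12.3 and 11.95 in the middle turn, and at 15.2 and 12.2 against 16.1 and 13.9 in the basal turn. Its homozygous libraries were lower in the apical and middle turns and overlapped in the basal turn, and its mean change was -0.20 ± 0.10 (SE). Its paralogue Zmym5, 308 kb away, changed by -0.21 ± 0.15 over the mean of the turns, and its repeats spread as widely as its genotypes, from 8.94 to 15.3.

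On the lower side, Mphosph8, which encodes a reader of repressive histone methylation in the silencing of transposons, was at 12.5 and 15.4 in wild-type against 10.8 and 9.02 in homozygous apical libraries, and at 14.6 and 22.2 against 11.5 and 10.8 in the middle turn. In the basal turn, where it stood at 16.6 and 16.3 in wild-type libraries against 16.4 and 18.8 in homozygous libraries, the genotypes overlapped. Its mean change of -0.34 ± 0.12 did not pass (limma, adjusted p = 0.167). Pspc1, a paraspeckle protein gene 378 kb from Gjb2, was at 5.48 and 5.25 in wild-type libraries against 8.77 and 9.32 in homozygous basal libraries. Its basal change of 0.66 ± 0.14 had an adjusted p of 0.0163 and did not pass the 0.01 limit, and in the apical turn its change was -0.38 ± 0.14. Among the 13 are the long noncoding genes Gm16973 and 2410022M11Rik. Gm16973 changed by -0.10 ± 0.19 and 2410022M11Rik by -0.16 ± 0.12 over the mean of the turns. Gm4032, a transcribed pseudogene that may share reads with its parent gene, stayed between 0.397 and 2.26.

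On the higher side, Gm4491 is the closest tested gene, 13.9 kb from Gjb2, and its level was at most 1.40. Ift88, which encodes a subunit of the intraflagellar transport that builds cilia, lay between 4.06 and 6.87 in all libraries and changed by -0.01 ± 0.14 over the mean of the turns. Il17d, a cytokine of the interleukin-17 family, was at 6.83 and 6.01 in wild-type libraries against 7.61 and 7.99 in homozygous apical libraries, and at 5.07 and 5.79 against 7.87 and 9.46 in the middle turn. In the basal turn it was at 10.1 and 5.24 against 4.45 and 4.70, so the order of the genotypes turned around. None of these Il17d differences passed the test. Xpo4, a nuclear export receptor, changed by 0.01 ± 0.09, and Eef1akmt1, a lysine methyltransferase of elongation factor 1 alpha, by -0.12 ± 0.16.

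**Figure D3:**
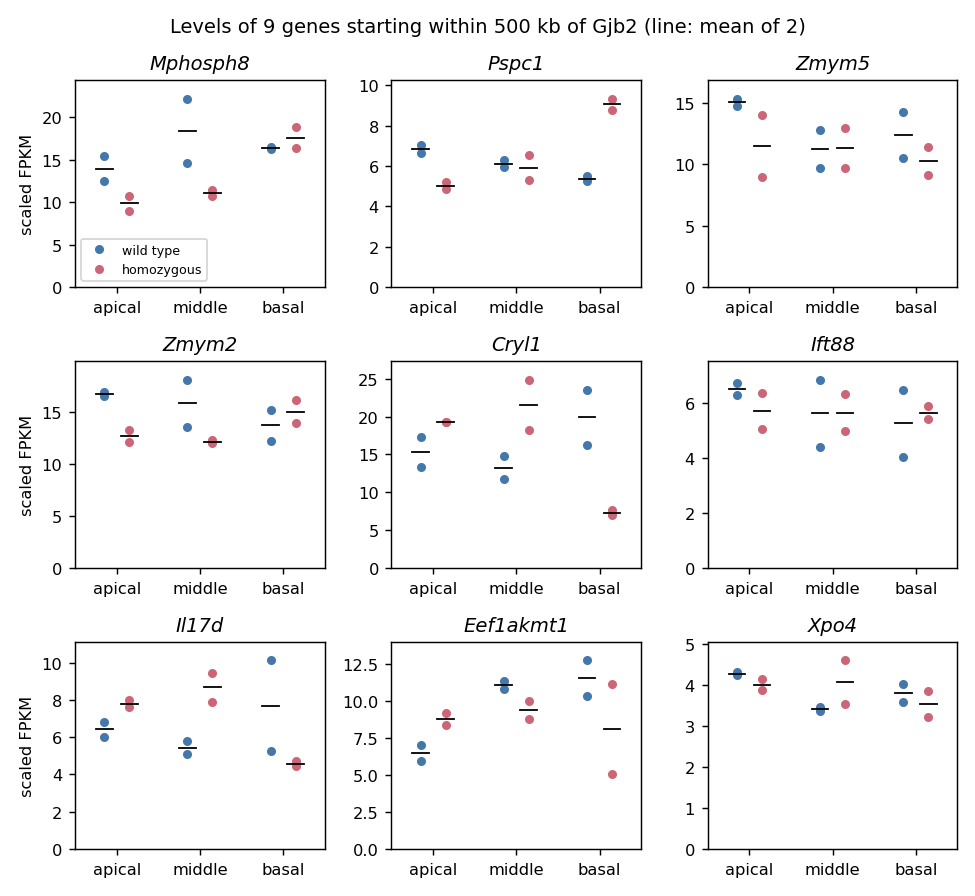
Scaled FPKM (y axis, from 0) in each library for 9 genes that start within 500 kb of Gjb2, by turn (x axis) and genotype. Each point is a library and each line the mean of 2. Cryl1 shows its 2 homozygous basal libraries, at 7.06 and 7.61, below all others.

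Cryl1, lambda-crystallin, which encodes an L-gulonate dehydrogenase, is the called gene nearest to Gjb2, at 176 kb. It was at 13.3 and 17.4 in wild-type libraries against 19.3 and 19.3 in homozygous apical libraries, at 11.7 and 14.8 against 18.2 and 24.9 in the middle turn, and at 23.5 and 16.3 against 7.06 and 7.61 in the basal turn. Homozygous libraries were thus higher in the apical and middle turns and lower in the basal turn, with no overlap in any turn. Within a single turn, most of all genes tested had no overlap either. The basal change was -1.31 ± 0.23 (limma, adjusted p = 0.00849), and it averaged to -0.11 ± 0.13 over the turns. Gjb2 itself had the same order of signs, with changes of 0.49 ± 0.47, 0.81 ± 0.47 and -1.94 ± 0.47 in the apical, middle and basal turns, and so had Gjb6, with 1.03 ± 0.28, 1.27 ± 0.28 and -0.81 ± 0.28. Neither was called in any turn. The limma adjusted p-values were 0.658, 0.319 and 0.0238 for Gjb2 and 0.129, 0.0450 and 0.0759 for Gjb6. For the basal minus middle difference Gjb6 did pass, at -2.08 ± 0.39 (limma, adjusted p = 0.00747). Gjb2 did not, at -2.75 ± 0.66 (limma, adjusted p = 0.0195). The study's qPCR, reported for the cochlea and not by turn, found both transcripts reduced in homozygotes. The basal differences of Cryl1 ran with the lower epithelial marker sum of the homozygous basal libraries. In the apical turn Cryl1 was higher in homozygotes while that sum was lower, at 5856 and 6201 against 6599 and 8285 in wild-type libraries. In the middle turn the sums overlapped, at 7063 and 10694 in homozygous libraries against 7188 and 7577. The part of tissue content in the differences of Cryl1 was not tested.

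The other genes called in the basal turn lie farther away. Tnfrsf19, a receptor of the tumour necrosis factor family known from supporting and stem cells, starts 3865 kb from Gjb2 and was at 31.4 and 38.3 in wild-type libraries against 12.04 and 11.3 in homozygous basal libraries, a change of -1.49 ± 0.24 (limma, adjusted p = 0.00748). Carmil3, a regulator of actin capping, was at 0.444 and 1.49 in wild-type libraries against 8.76 and 5.78 in homozygous basal libraries, a change of 2.10 ± 0.31 (limma, adjusted p = 0.00646). Jph4, a junctophilin that couples membranes in neurons, was at 0.336 and 0.883 against 5.13 and 4.12, a change of 1.82 ± 0.30 (limma, adjusted p = 0.00805). In the basal turn both higher genes moved with the neuron marker sum, and Tnfrsf19, which was lower, with the epithelial one. Whether they would differ at equal tissue content was not tested. These 4 calls depended on the set of libraries. Leaving out any single library changed which neighbours were called, and Tnfrsf19 lost its call each time. A fit on the basal libraries alone gave 0.

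Slc7a8 was the one neighbour whose 6 homozygous libraries all lay above its 6 wild-type libraries. It encodes LAT2, a transporter that exchanges neutral amino acids and carries thyroid hormones, and starts 2376 kb from Gjb2 on the lower side. It was at 10.3 and 9.66 in wild-type libraries against 29.8 and 26.2 in homozygous apical libraries, at 10.3 and 10.3 against 20.8 and 28.5 in the middle turn, and at 10.95 and 10.95 against 25.7 and 11.4 in the basal turn. The wild-type libraries were almost level across the turns, whereas the second homozygous basal library was only just above them. Over all tested genes, 1.47% had no overlap of genotypes over the 12 libraries, and among the 109 neighbours it was 1 gene, 0.917%. The change was 1.40 ± 0.31 (apical), 1.17 ± 0.31 (middle) and 0.61 ± 0.31 (basal), and 1.06 ± 0.18 over their mean. By limma this mean change had an adjusted p of 0.0236, which is past 0.05 and short of the 0.01 used for a call. With 1 library left out, its mean change ran from 0.877 to 1.24, the highest being without the second homozygous basal library. In the other settings with all libraries it ran from 1.06 to 1.12. There the limma adjusted p ran from 0.0132 to 0.0599, so it was not under 0.05 in every setting.

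Shisa2, a regulator of Wnt and FGF receptor maturation 2527 kb away, was the other neighbour with an adjusted p under 0.05 over the mean of the turns. It was at 42.2 and 34.5 in wild-type libraries against 24.2 and 19.5 in homozygous apical libraries, at 21.2 and 19.4 against 19.6 and 18.3 in the middle turn, and at 18.4 and 14.2 against 10.4 and 8.17 in the basal turn. The genotypes were apart in the apical and basal turns and overlapped in the middle turn, and the mean change was -0.54 ± 0.11 (limma, adjusted p = 0.0441), under the fold limit. In the other settings with all libraries, its limma adjusted p ran from 0.0205 to 0.178. Named by size were the 5 largest falls and rises among genes whose mean was at least 5 scaled FPKM in the genotype with the higher mean, so that genes of lower level with similar or larger changes are not listed. The falls larger than that of Shisa2 were Gm9022, at -1.89 ± 0.46, Amer2, at -0.97 ± 0.33, and Gm29266, at -0.82 ± 0.32. None passed with all libraries. With 1 library left out, the change of Gm9022 ran from -2.38 to -1.39 and that of Gm29266 from -1.16 to -0.49. Gm9022 is a transcribed processed pseudogene, whose reads may belong in part to its parent gene, and its wild-type libraries ran from 0.175 to 8.23. After Slc7a8, the rises under this rule were Cmtm5 at 0.60 ± 0.34, Ctsg at 0.55 ± 0.71, whose homozygous mean of 5.84 rests on 1 library, Cpne6 at 0.48 ± 0.44 and Psme2 at 0.34 ± 0.13. Each of these was lower in at least 1 turn. Cpne6 changed by -0.13 (apical), -1.78 (middle) and 3.36 (basal), and Cmtm5 by 1.27, -0.74 and 1.26. Ctsg and Psme2 were lower in the basal turn, by -1.40 and -0.46. The fifth of the falls under this rule, Trim13, changed by -0.47 ± 0.13.

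**Figure D4:**
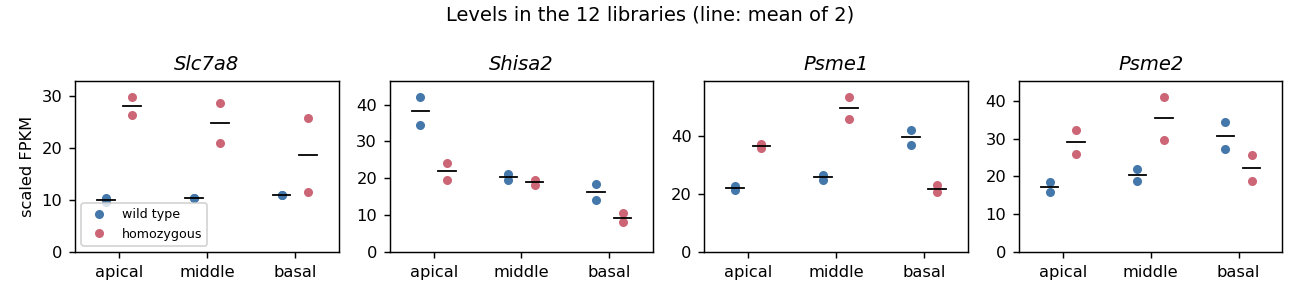
Scaled FPKM (y axis, from 0) of Slc7a8, Shisa2, Psme1 and Psme2 in the 12 libraries by turn (x axis) and genotype, with a line at the mean of 2. For Slc7a8 all 6 homozygous libraries lie above the wild-type ones, the lowest at 11.4, and for Psme1 the order of the genotypes turns around in the basal turn.

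The genotype difference of 10 neighbours differed between the basal and the middle turn by a test of that difference, which is 9.17% of the 109 where 8.91% of all genes were called. Between the basal and the apical turn it was 1 neighbour, Psme1, where 0.796% of all genes were called, and between the middle and the apical turn 0 neighbours, where limma called 0% of all genes. At an unadjusted p under 0.05, limma gave 16 neighbours for this middle minus apical difference, 14.7% of the 109, against 8.05% of all genes and 6.71% of those tested on the rest of chromosome 14. Of the 10 called between the basal and the middle turn, the 9 described here fall into a set with a lower and a set with a higher homozygous level in the basal turn. In the first set are Psme1, Nfatc4, Cryl1 and Tnfrsf19. Psme1 encodes a subunit of the proteasome activator that interferon induces, and was at 23.0 and 21.4 in wild-type libraries against 36.2 and 37.5 in homozygous apical libraries, at 26.7 and 25.0 against 53.8 and 46.0 in the middle turn, and at 42.4 and 37.2 against 20.7 and 23.3 in the basal turn. In each turn the genotypes were apart, in opposite order in the basal turn, and the basal minus middle difference was -1.75 ± 0.20 (limma, adjusted p = 0.00227). Its partner subunit Psme2, 1511 kb from Gjb2, had the same signs, at 0.73 ± 0.23, 0.76 ± 0.23 and -0.46 ± 0.23 in the 3 turns. The calcineurin-dependent transcription factor gene Nfatc4 changed by 0.89 ± 0.20 (middle) and -0.83 ± 0.20 (basal).

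The second set holds Fgf9, a fibroblast growth factor, Mtmr6, a lipid phosphatase gene, and Jph4, Carmil3 and Atp8a2. Atp8a2, which encodes a phospholipid flippase of neurons, was at 7.35 and 7.92 in wild-type libraries against 3.30 and 2.36 in homozygous middle libraries, but at 1.07 and 3.74 against 21.6 and 8.64 in the basal turn. The genotypes were apart in both turns, in opposite order, and the difference of 3.42 ± 0.63 passed (limma, adjusted p = 0.00685). Fgf9 was at 14.8 and 18.8 against 6.74 and 5.62 in the middle turn and at 8.38 and 10.9 against 22.9 and 14.2 in the basal turn. The neuron marker sum changed in the same order between turns, high in wild-type middle and homozygous basal libraries, and its part in these differences was not tested. Leaving out one library lowered the count of 10 in every case but that of the second wild-type basal library, which raised it. The Psme1 call between basal and apical turn was lost without any one library except the second wild-type basal library.

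**Figure D5:**
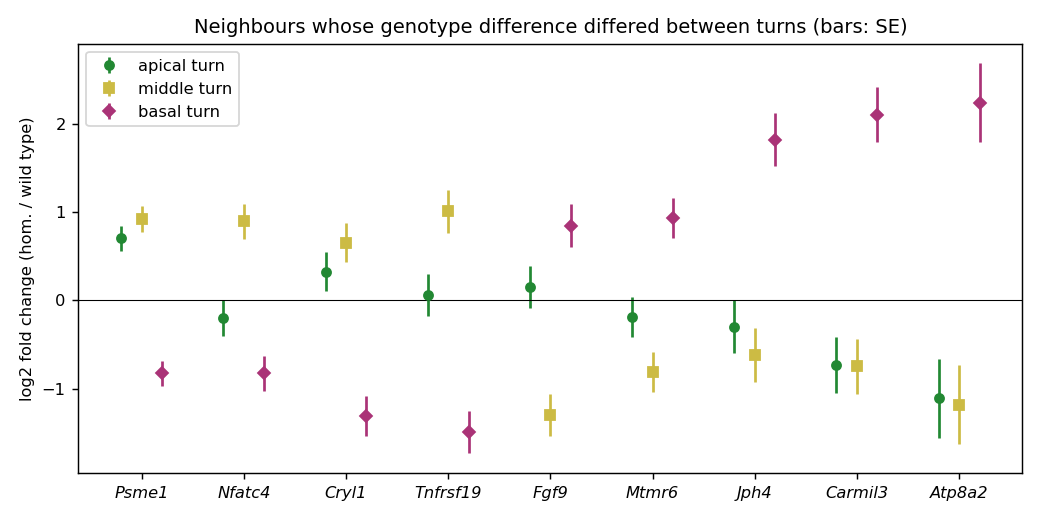
Log2 fold change of homozygous over wild-type (y axis, bars are standard errors) in the apical, middle and basal turn for 9 neighbours whose genotype difference differed between the basal and the middle turn. In all 9 the middle and basal changes have opposite signs, from Psme1, at 0.92 and -0.83, to Atp8a2, at -1.18 and 2.24. The genes were picked by the difference of these same changes, which favours opposite signs.

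By known function, the calls were scattered over the window. Of the listed ligands and receptors 4 of 5 were tested, and in the basal turn Tnfrsf19 was lower and none was higher, with Fgf9 and Tnfrsf19 called for the turn difference in opposite directions. In the list of proteasome activator and interferon genes 10 of 11 were tested, none was called in any turn, and their median change was 0.41 (apical), 0.39 (middle) and -0.28 (basal). All 6 interferon response markers were up in homozygotes apically, with a median of 0.74, and down basally, with a median of -0.70. For the middle turn they were split, 4 up and 2 down, with a median of 0.39. Their summed level there was 21.3 and 94.0 in wild-type libraries, which encloses the 57.1 and 44.0 of homozygous libraries. The part of these markers was not tested. None of the 7 tested genes for zinc finger MYM and chromatin proteins was called, with medians of -0.37, -0.05 and 0.12 in the 3 turns. The same held for nuclear transport (3 tested), mitochondrial genes (5), the ubiquitin and telomere list (5), cilium and centrosome genes (2), the growth-restraining Hippo kinase Lats2, whose mean change was 0.07 ± 0.08, and the dehydrogenase/reductase genes Dhrs1 and Dhrs4. The calcium uniporter regulator Micu2 lay between 16.1 and 25.7, and the tested set of mitochondrial genes had a median mean change of 0.17.

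Several gene clusters of the window were nearly silent in the cochlea. Myh6 and Myh7, the cardiac myosin heavy chains, reached at most 0.841 and 0.0242 and were not tested. Of the mast cell and granzyme cluster, 7 of 14 listed genes are in the window of the table and 1, Ctsg, was tested. Ctsg, cathepsin G of neutrophils, was at 28.4 in the first homozygous middle library and at most 5.51 in all others. The same library held the highest level of the myeloid transcription factor gene Cebpe, at 9.89 with at most 1.92 elsewhere, of the leukotriene receptor gene Ltb4r1, at 7.02 with at most 1.997 elsewhere, and of the mast cell proteases Cma1, at 3.35, Mcpt4, at 3.67, and Mcpt8, at 5.68. It was also the library with the highest myeloid marker sum, and the part of such cells was not tested. Cebpe was named after its values were seen.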

How the data were processed

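The authors prepared libraries from total RNA of 3 equal sections of the cochlea (150 nt pairs), trimmed them with fastp 0.20.0, aligned them to mm10 with STAR 2.7.3a, kept uniquely mapped reads and deposited FPKM computed with StringTie 2.0. Depth is unknown and strand is not given in the sources used here, so overlapping and antisense genes cannot be told apart. Of the 205 identifiers, 200 were found with their version in GENCODE vM21. The FPKM of a library summed to 316425 to 408162 and were divided by median-of-ratios factors (0.917 to 1.06). Genes with at least 1 FPKM in 2 libraries were tested with limma 3.58.1 in R 4.3.3 on log2(scaled FPKM + 1), with a mean for each group, an eBayes trend, two-sided tests and Benjamini-Hochberg adjustment over 16215 genes. A call needs a fold change over 2 and an adjusted p under 0.01. The fit was tested on simulated data. Named genes were the tested members within 500 kb, those called or without overlap, the 3 highest, the 5 largest rises and falls where the genotype with the higher mean averaged 5 scaled FPKM or more, and the fixed lists; 1 called member is not reported here. Members and lists were chosen with earlier results of these data known. The alternatives were other pseudocounts, filters, scalings, thresholds, fits on 1 turn, weights, a replicate block and each library left out.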

Additional observations from a re-analysis of the deposited data

Results flagged for a closer look

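The genotype difference of the 9 neighbours described here differed between the basal and the middle turn by limma's test of that difference. The log2 differences, basal minus middle, were 2.44 for Jph4, 2.85 for Carmil3, -1.75 for Psme1, -1.72 for Nfatc4, -1.96 for Cryl1, 2.15 for Fgf9, 3.42 for Atp8a2, 1.74 for Mtmr6 and -2.50 for Tnfrsf19. Psme1 also differed between the basal and the apical turn, by -1.53. The neuron marker sum was apart by genotype in both turns, in opposite order. So were the sums for Schwann cells and myelin, for hair cells, and for neutrophils and their precursors. The hair cell sum was 15.5 and 64.5 in wild-type against 204 and 374 in homozygous middle libraries. In the basal turn it was 80.4 and 92.8 against 4.11 and 7.07. The epithelial sum was apart in the basal turn and overlapped in the middle turn. The part of these cell types in the differences was not tested.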

How the results depend on the processing

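The counts of called neighbours depended on the settings in the basal turn, where 4 were called: 0 with no filter, 0 with the replicate block, 0 with library weights and 0 with only the basal libraries, against 12 at an adjusted p under 0.05 with the fold limit and 20 without it. Leaving out one library gave 0 to 12. In the apical turn it was 1 with library weights. The 20 were 18.3% of the neighbours tested, against 18.1% of all genes. At an adjusted p under 0.05 the middle turn gave 3 with the fold limit and 6 without it (5.50% against 3.99% of all genes), and the mean of the turns 1 and 2 (1.83% against 2.36%). For the mean, leaving out one library gave 0 to 2. For the basal minus middle difference the count of 10 became 25 and 30 at the looser threshold with and without the fold limit (the latter 27.5% against 22.9% of all genes), 1 with no filter, 5 with library weights and 2 to 17 with a library left out, and 9 with the replicate block. For basal minus apical, the count of 1 became 11 and 11 at the looser threshold (10.1% against 12.5% of all genes without the fold limit), 0 with no filter, with the replicate block or without a trend, 3 with quantile normalization and 0 to 5 with a library left out. The neighbours without overlap were 2 with no filter and 1 to 6 with a library left out. For these alternatives the share of all genes is given only at the looser threshold without the fold limit. The other counts here cannot be set against the background. No called change of a single gene reversed its sign in any alternative run, but these changes had been picked for a fold change over 2. Many lost the call. In the settings other than a left-out library, the basal call of Jph4 held in 3 of 8 and that of Carmil3 in 5 of 9. The basal minus middle call of Psme1 held in 8 of 8. Over 15 pairs of groups, the correlation of deviations between libraries with the same repeat number ran from -0.432 to 0.45, and 4 pairs were over 0.1. This cannot settle whether turns share cochleae, since cochleae numbered in another order would give negative values. Depth is unknown, so the counting error of low genes such as Gm4491 cannot be given.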
